A study of Mus musculus with 25 samples.

Results

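MicroRNA (miRNA) genes and miRNA host transcripts were examined in RNA-seq of HSLAM cells, the LSK+CD150+CD48− bone marrow population that is highly enriched for hematopoietic stem cells. All genes whose symbol begins with Mir and a digit, or with Mirlet, were taken from the expression table. These were 113 of 23116 genes: 106 hairpin genes and 7 host transcripts, whose symbols end in hg. There were 3 control libraries (Znf143 f/f x Rosa26ERT2-Cre−, called Znf143 f/f here) and 3 libraries of the deleted genotype (Znf143 f/f x Rosa26ERT2-Cre+, called Znf143 −/−), each numbered 1 to 3 as in the labels. Both groups carried the floxed allele, with loxP sites around exon 1, and both were given tamoxifen at the middle dosage over 10 days. The mice were C57BL/6 males of 8 to 12 weeks, and the Rosa26 locus drives Cre in all tissues, so that deletion was not restricted to blood cells.

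The labels call the controls WT and the deleted genotype CTCF KO, whereas the paper describes a Znf143 deletion. Zfp143, the mouse symbol of Znf143, had 412, 760 and 563 fragments in Znf143 f/f cells and 24, 51 and 55 in Znf143 −/− cells. It fell by 3.95 on the log2 scale (adjusted p = 0.000456 from limma), whereas the log2 fold change of Ctcf was -0.13 with a standard error of 0.0989 (adjusted p = 0.460). The libraries held 38643255 to 57895793 fragments on genes. A fragment is 1 sequenced read pair, and fragments were recovered from the deposited FPKM and gene lengths. The stem cell markers Kit, Ly6a, Slamf1, Procr, Mecom, Hlf and Fgd5 were detected in every library. Ly6a, the gene of the sorting antigen Sca-1, rose by 1.13 on the log2 scale, and Mecom, Hlf and Kit fell by 0.55, 0.45 and 0.45. Markers outside the sorting gate had a summed FPKM of 10.1 to 12.4 in Znf143 f/f and 20.2 to 21.1 in Znf143 −/− libraries, over 6 of 8 genes. Most of it was Cd48, which rose by 0.98 on the log2 scale (adjusted p = 0.00320). Without Cd48, the sum was 0.627 to 1.62 against 1.12 to 1.23, and Cd3e and Ly6g were at 0 in some libraries. The part of these markers in the results that follow was not tested, and in bulk samples fewer cells of a type cannot be told apart from less RNA per cell.

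A miRNA gene is transcribed as a long primary transcript with one or more hairpins. The Microprocessor, built from Drosha and Dgcr8, cuts the hairpin out in the nucleus, Exportin-5 carries it to the cytoplasm, and Dicer trims it to a mature miRNA that guides an Argonaute protein to target mRNAs. Targets are recognized mainly through the seed, which is bases 2 to 8 of the mature miRNA. In blood, miRNAs such as miR-142, miR-155, miR-150, miR-223 and the miR-17 to miR-92 cluster are known for their roles in stem cell function and lineage development. The libraries were made from polyadenylated RNA and read long transcripts. A fragment on a hairpin gene can come from the primary transcript or from unspliced RNA around it, and its origin was not tested. Mature miRNAs were not measured here.

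The mature sequences below belong to the transcripts on which the results turn, with the seed in capitals and the remaining bases in lower case. They were taken from RefSeq on GRCm38.p6, in which 96 of the 106 hairpin genes matched an entry. The first set is encoded by the host transcript that rose, Mir22hg.
miR-22-3p: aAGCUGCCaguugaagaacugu
miR-22-5p: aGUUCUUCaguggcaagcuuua

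The second set is encoded by Mir130b and Mir301b, neighbouring hairpins of which the second fell.
miR-130b-3p: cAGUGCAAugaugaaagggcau
miR-130b-5p: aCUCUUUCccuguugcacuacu
miR-301b-5p: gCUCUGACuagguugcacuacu

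The third set comes from Mir17hg, the host transcript of the miR-17 to miR-92 cluster. miR-17-5p and miR-20a-5p share the seed AAAGUGC, and miR-19a-3p and miR-19b-3p share the seed GUGCAAA. The other members of the cluster have seeds of their own.
miR-17-5p: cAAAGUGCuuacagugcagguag
miR-20a-5p: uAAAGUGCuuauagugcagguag
miR-19a-3p: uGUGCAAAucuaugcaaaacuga
miR-19b-3p: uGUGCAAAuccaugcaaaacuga
miR-18a-5p: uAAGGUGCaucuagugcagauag
miR-92a-3p: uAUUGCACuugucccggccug

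The fourth set comes from the cluster of Mir23a, Mir27a and Mir24-2, whose hairpins are counted one by one in the table. Their seeds differ, although those of miR-23a-3p and miR-27a-3p begin with the same bases.
miR-23a-3p: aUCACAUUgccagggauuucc
miR-27a-3p: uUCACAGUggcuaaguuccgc
miR-24-3p: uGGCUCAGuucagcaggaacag

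The last set shows a mature product of single hairpins whose values are given below. Mir28c and Mir6236 are named only.
miR-207: gCUUCUCCuggcucuccucccuc
miR-1192: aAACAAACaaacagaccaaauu
miR-5128: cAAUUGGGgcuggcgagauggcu
miR-8116: aAGGAUCCggggcuaguuggc
miR-146a-5p: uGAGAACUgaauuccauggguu
miR-7224-5p: gGGUAGGCcccucagugaaga

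Few hairpin genes were detected, and most of them rested on few fragments. Hairpin genes have a median listed length of 84 bases (56 to 147), and 3 fragments, the smallest number told apart from 0, correspond to an FPKM of 0.693 to 0.971 on a hairpin of 80 bases. The members had a median of 4.54 fragments after scaling for depth, against 156.1 over all genes. A library stood at 0 fragments for 55 of the 113 members. Means of under 3 fragments were found for 35 members and means of 3 to under 10 for a further 42. The 36 members with a mean of at least 10 scaled fragments, 30 hairpin genes and 6 host transcripts, were tested, and the 77 others were below this filter.

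Whether an annotated hairpin had a row in the table varied with its position. Of 1174 annotated hairpin genes with these symbols on GRCm38 (GENCODE vM21), 104 were listed (8.86%). Of the 622 that lie only in introns of other genes, 73 were listed (11.7%), and of the 94 partly in an exon, 10 (10.6%). Outside genes, 19 of 238 were listed (7.98%). Of the 220 hairpins that lie wholly in an exon of another gene, 2 were listed (0.909%), Mir31 and Mirlet7a-1. The host transcripts show the same split, since none of the 9 hairpins in their exons was listed and 3 of the 10 in their introns were. Mir22, Mir155 and the 6 hairpins of the miR-17 to miR-92 cluster all lie in exons of their hosts, so that only the host row reports them.

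**Figure D1:**
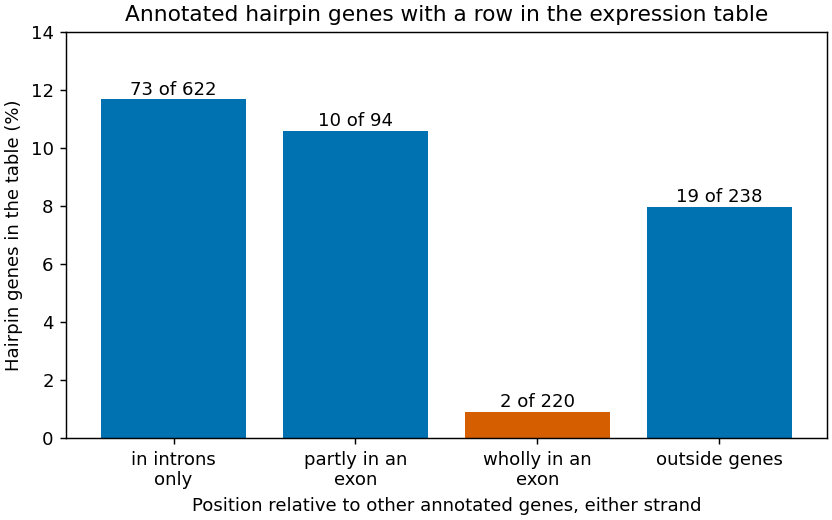
The bars give the percent of annotated hairpin genes that have a row in the expression table (y axis, from 0), by position relative to other annotated genes on either strand (x axis), with the numbers above the bars. The bar for hairpins wholly in an exon stands at 0.909%, and the others stand between 7.98% and 11.7%.

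A single hairpin gene held most of the fragments. Mir6236 (chr9:110281287-110281409, outside annotated genes) had 3420, 5192 and 3899 fragments in Znf143 f/f and 5057, 3953 and 4343 in Znf143 −/− libraries. It took 60.2% to 71.1% of all fragments on hairpin genes, and its genotypes overlapped (log2 fold change -0.09, standard error 0.168, adjusted p = 0.774). Its sequence has 1 locus in GRCm38 at an identity of at least 95%, but copies missing from this assembly were not searched. Whether its fragments come from a miRNA transcript or from another RNA was not tested. Mir703 and Mir1931 followed. Mir703 (chr5:98475556-98475664, on the opposite strand of Cfap299) had 377, 1440 and 637 fragments against 964, 330 and 451. Its sequence has 3 loci in GRCm38 at an identity of at least 95%, so that its fragments cannot be placed with certainty. Mir1931 (chr10:93162785-93162903, in an intron of Cdk17) had 607, 580 and 777 fragments against 597, 337 and 470. Its log2 fold change was -0.71 with a standard error of 0.269 (adjusted p = 0.145), and its genotypes overlapped. Mir5136, which has 2 such loci, had 70, 157 and 80 fragments against 161, 46 and 57, again without a separation of the genotypes.

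All hairpin genes together took 0.0133%, 0.0160% and 0.0139% of the fragments on genes in Znf143 f/f and 0.0164%, 0.0115% and 0.0110% in Znf143 −/− libraries. Znf143 f/f library 2 and Znf143 −/− library 1 were thus the highest of their groups. The same held gene by gene: in 21 of the 36 tested members (58.3%) these libraries were each the highest of their genotype, compared with 24.4% of all tested genes. Znf143 f/f library 2 also had the highest summed FPKM of markers outside the gate other than Cd48 (1.62). Znf143 −/− library 1 was not the highest of its group in this sum (1.12, against 1.12 and 1.23 in libraries 2 and 3). Whether these libraries differ in unspliced RNA, in cell content or in another property was not tested.

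**Figure D2:**
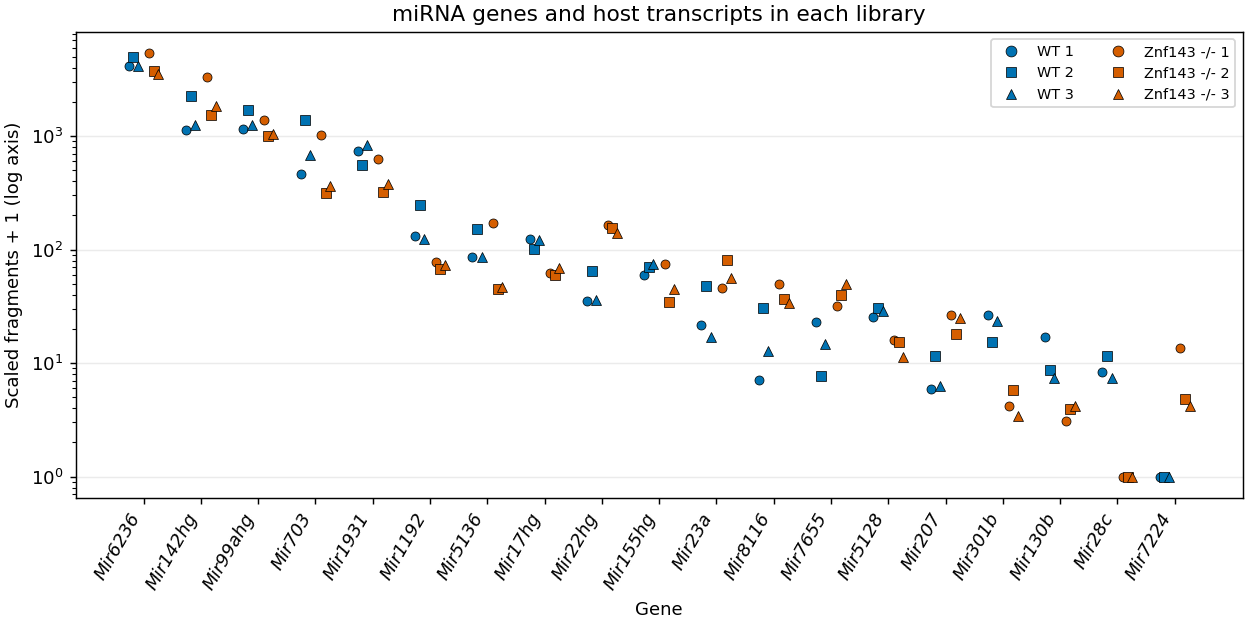
Each point is 1 library, with scaled fragments plus 1 on a log axis (y) for 19 members (x), blue for Znf143 f/f (WT) and orange for Znf143 −/−, and with the replicate number as circle, square or triangle. Mir22hg and Mir301b separate the genotypes in opposite directions, Mir28c and Mir7224 are at 0 in all libraries of a genotype, and the abundant genes at the left overlap.

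Of the 36 tested members, Mir22hg was called higher and Mir301b was called lower in Znf143 −/− cells. These 2 calls (5.56% of those tested) compare with 8.48% of all 17935 tested genes, 4.04% called higher and 4.43% called lower, so the share of members called was not above the background. Differences were tested with limma on log2(scaled fragments + 1) with Benjamini-Hochberg adjustment over all tested genes. Without adjustment, 10 members had p under 0.05, 5 higher and 5 lower (27.8%, against 25.9% of all genes). The genotypes did not overlap in 10 members, 5 in each direction (27.8%, against 32.0% of all genes). The median log2 fold change was -0.09 over the tested members and 0.008 over all tested genes.

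**Figure D3:**
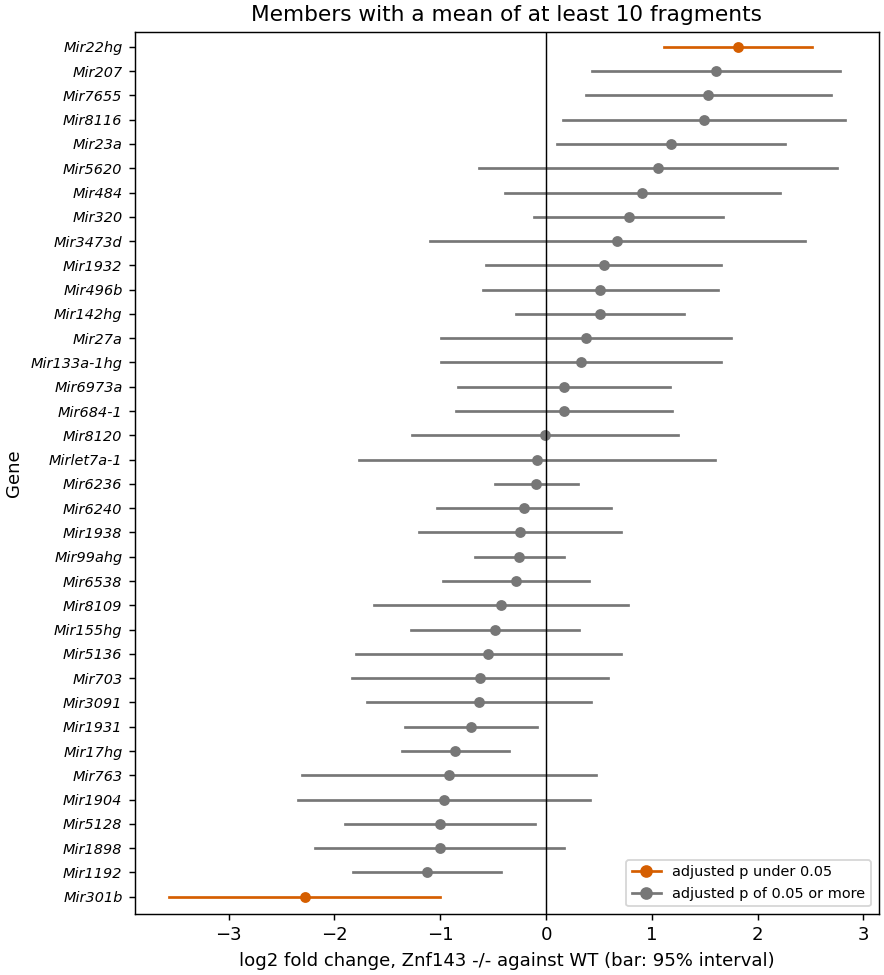
Points give the log2 fold change of Znf143 −/− against Znf143 f/f (x axis) and bars its 95% confidence interval for the 36 tested members (y axis), orange where the adjusted p is under 0.05. Only Mir22hg (1.81) and Mir301b (-2.28) are orange, and 10 of the 36 intervals, these included, do not reach 0.

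Host transcripts are longer than hairpins, and 6 of the 7 passed the filter, compared with 30 of the 106 hairpin genes. Mir22hg (ENSMUSG00000085148.1, chr11:75461539-75466676) is the spliced noncoding transcript that carries the miR-22 hairpin in an exon, and miR-22 is known for its effects on stem cell self-renewal. An exon of Tlcd2, a protein-coding gene on the same strand, overlaps its span, and whether RNA of Tlcd2 adds to its fragments was not tested. Mir22hg had 28, 67 and 33 fragments in Znf143 f/f and 155, 162 and 172 in Znf143 −/− libraries. Every Znf143 −/− library lay above every Znf143 f/f library, also after scaling, with 44.3 ± 16.9 scaled fragments in Znf143 f/f and 152 ± 13.0 in Znf143 −/− cells (SD, n = 3 each), a ratio of 3.43. Mir22hg rose by 1.81 on the log2 scale (95% confidence interval 1.12 to 2.51, adjusted p = 0.0133 from limma). Leaving out Znf143 f/f library 1 or 3, or Znf143 −/− library 2 or 3, ended this call (adjusted p of 0.0558 to 0.0691 from limma), with log2 fold changes of 1.66 to 1.88. With the same libraries left out, 330 to 471 of all genes were called, compared with 1520 with all libraries.

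Mir17hg (chr14:115042879-115046727), the host of the miR-17 to miR-92 cluster, which is known to promote proliferation and B cell development, had 100, 106 and 113 fragments in Znf143 f/f and 58, 61 and 85 in Znf143 −/− libraries. Scaled for depth, these were 114 ± 11.6 and 62.6 ± 5.16 fragments (SD, n = 3 each), and the genotypes did not overlap. Its log2 fold change of -0.86 (standard error 0.219, 95% confidence interval -1.37 to -0.35) did not pass the threshold (adjusted p = 0.0546 from limma). Without Znf143 f/f library 2, the adjusted p was 0.0277.

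The remaining host transcripts did not pass the test. Mir142hg (chr11:87755577-87757270), the host of the blood-specific miR-142, was the most abundant host, with 931, 2377 and 1176 fragments against 3122, 1612 and 2284. The libraries of both genotypes were spread over a wide range (log2 fold change 0.51, 95% confidence interval -0.28 to 1.30, adjusted p = 0.391). Mir99ahg (chr16:77236317-77773427) hosts miR-99a, let-7c and miR-125b in its introns, of which miR-125b is known to expand hematopoietic stem cells. It had 948, 1765 and 1187 fragments against 1307, 1054 and 1294, and a log2 fold change of -0.25 (95% confidence interval -0.68 to 0.17). Mir155hg (chr16:84703167-84715245), the host of the immune regulator miR-155, had 48, 72 and 70 fragments against 69, 35 and 55 (log2 fold change -0.48, 95% confidence interval -1.28 to 0.32). Mir133a-1hg, whose miRNAs are known from muscle, had 21, 8 and 31 fragments against 26, 26 and 25 (log2 fold change 0.33, -0.27 without Znf143 f/f library 2). Mir670hg stayed below the filter, with 1, 1 and 4 fragments against 0, 8 and 1. Per length, the mean scaled FPKM in Znf143 f/f cells was 119.8 for Mir142hg, 2.02 for Mir99ahg, 1.16 for Mir133a-1hg, 0.974 for Mir155hg, 0.672 for Mir17hg and 0.479 for Mir22hg. In Znf143 −/− cells Mir22hg stood at 1.65 and Mir17hg at 0.368, so that the order of their means was exchanged. In Znf143 f/f library 2, however, Mir22hg (0.69) already stood above Mir17hg (0.594). Neighbours in the rest of the order of means, from Mir133a-1hg to Mir17hg, lay within the spread of Mir133a-1hg.

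Among single hairpins, Mir301b gave the only call. Mir301b (ENSMUSG00000076288.1, chr16:17124400-17124496, minus strand, in an intron of 2610318N02Rik) had 21, 15 and 21 fragments in Znf143 f/f and 3, 5 and 3 in Znf143 −/− libraries. All Znf143 −/− libraries lay below all Znf143 f/f libraries, with 20.7 ± 5.82 against 3.45 ± 1.21 scaled fragments (SD, n = 3 each). Mir301b fell by 2.28 on the log2 scale (95% confidence interval -3.56 to -1.002, adjusted p = 0.0458 from limma). The call lies close to the threshold and rests on few fragments. It ended with the replicate block, with a pseudocount of 0.5 (adjusted p = 0.0505 from limma) and with scaling by library totals (0.0598). It also ended without Znf143 f/f library 1 or 3 or Znf143 −/− library 2 or 3 (0.113 to 0.197). Its neighbour Mir130b (chr16:17124061-17124142), which lies in the same intron at a distance of 258 bases, had 13, 8 and 6 fragments against 2, 3 and 4. Mir130b also had every Znf143 −/− library below every Znf143 f/f library, but its mean of 6.34 scaled fragments was below the filter. Without a filter its log2 fold change was -1.47 (adjusted p = 0.163 from limma). The containing gene 2610318N02Rik did not go the same way, with 1039, 775 and 890 scaled fragments against 1231, 1304 and 1168 (log2 fold change 0.46, adjusted p = 0.0735). Relative to this gene, the log2 level of Mir301b was lower by 2.74 in Znf143 −/− libraries, and no library of one genotype reached the other (exact permutation test, two-sided, p = 0.1, and 3 against 3 cannot give a smaller p).

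The hairpins of the Mir23a cluster on chromosome 8, known from myeloid and B cell development, lay next to each other but did not give a common picture. Mir23a (chr8:84208518-84208592) had 17, 49 and 15 fragments against 42, 84 and 68, with Znf143 f/f library 2 inside the range of the Znf143 −/− libraries (log2 fold change 1.18, standard error 0.464, adjusted p = 0.159). Without that library the adjusted p was 0.0310. Mir27a had 4, 13 and 10 fragments against 17, 8 and 14 (log2 fold change 0.38, adjusted p = 0.735). Mir24-2 had 1, 4 and 0 fragments against 5, 1 and 6 and was below the filter. Mirlet7a-1, a hairpin of the let-7 family that is known to restrain proliferation, had 4, 15 and 12 fragments against 21, 7 and 6, with no separation (log2 fold change -0.08, adjusted p = 0.959). A list of 86 hairpins and hosts known from blood had 16 genes in the table, of which 9 were tested. Of these, 1 was called higher (Mir22hg) and none but Mir301b lower (all tested genes: 4.04% higher, 4.43% lower).

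The other tested hairpins at the ends of the range did not pass the threshold. At the upper end, Mir207 had 4, 11 and 5 fragments against 24, 18 and 30 (log2 fold change 1.61, adjusted p = 0.0935), Mir7655 had 18, 7 and 13 against 29, 41 and 61 (1.54, adjusted p = 0.101) and Mir8116 had 5, 31 and 11 against 46, 37 and 41 (1.49, adjusted p = 0.151). In these hairpins all Znf143 −/− libraries lay above all Znf143 f/f libraries. At the lower end, Mir1192 had 107, 258 and 115 fragments against 73, 69 and 90 (-1.13, adjusted p = 0.0612), Mir1898 had 15, 25 and 21 against 16, 6 and 13 (-1.005, adjusted p = 0.259) and Mir5128 had 20, 31 and 26 against 14, 15 and 13 (ratio of the scaled means 0.485, adjusted p = 0.153). After scaling the genotypes did not overlap in these either. Mir1904, with 7, 15 and 25 fragments against 5, 11 and 8, overlapped (-0.97, adjusted p = 0.353). Without Znf143 f/f library 2, Mir207, Mir8116 and Mir1192 passed the threshold (adjusted p of 0.0301, 0.0251 and 0.0389 from limma).

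Below the filter, 3 hairpins had at least 3 fragments in every library of a genotype and 0 in all libraries of the other. Mir28c (chr15:53614205-53614279, in an intron of Samd12) had 6, 11 and 6 fragments in Znf143 f/f and 0 in all Znf143 −/− libraries. Taking 3 fragments over the group as the limit that a count of 0 allows, Mir28c was at least 8.83-fold lower in Znf143 −/− cells, and it was called when no filter was applied (adjusted p = 0.0230 from limma, where 7.12% of 23116 genes were called, 3.62% higher and 3.5% lower). Mir146 (chr11:43374397-43374461), the hairpin of the inflammatory regulator miR-146a, had 3, 16 and 3 fragments against 0 in each, at least 8.44-fold lower, with most fragments in Znf143 f/f library 2. Mir7224 (chr2:67675457-67675516, in an intron of B3galt1) had 0 in each Znf143 f/f library and 12, 4 and 4 fragments in Znf143 −/− libraries, at least 5.79-fold higher. These limits cover counting error only. Of all genes, 0.186% showed the pattern of Mir28c and 0.809% that of Mir7224. Neither Mir146 (adjusted p = 0.0651) nor Mir7224 (0.0611) passed the threshold of limma without a filter.

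Most detected hairpins lie inside other genes, and their fragments were therefore compared with those of the containing gene. Of the 106 hairpin genes, 63 lie in an intron of a gene on the same strand and 6 in or partly in an exon of one. A further 14 lie on the opposite strand of a gene, and 1, Mir3535, has no position in the annotation used. The other 22 do not lie wholly inside a gene. Some of these overlap a gene in part, such as Mir24-2 with an exon of Gm26532 on the same strand. For 67 hairpins the containing gene was itself tested, and 16 of these hairpins had passed the filter. Hairpin and containing gene had log2 fold changes of the same sign in 9 of these 16 pairs. Since the hairpin and its containing gene are read from the same libraries, such pairs are a description only.

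Mir8116 and Ache, the gene of acetylcholinesterase, had like differences. Ache had 230, 228 and 177 scaled fragments in Znf143 f/f and 488, 643 and 590 in Znf143 −/− libraries and rose by 1.43 on the log2 scale (standard error 0.175, adjusted p = 0.00421 from limma). The level of Mir8116 relative to Ache differed by 0.06 on the log2 scale (two-sided exact permutation test, p = 1). Samd12, which contains Mir28c, fell, with 990, 978 and 1074 against 449, 465 and 411 scaled fragments (log2 fold change -1.20, adjusted p = 0.00147 from limma). Relative to Samd12, Mir28c still differed by -1.96 on the log2 scale (two-sided exact permutation test, p = 0.1). The genotypes did not overlap in this relative level, and Mir28c was at 0 in all Znf143 −/− libraries. Zfr, which contains Mir1898 and encodes an RNA-binding zinc finger protein, fell by 0.50 on the log2 scale (adjusted p = 0.0219).

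Other hairpins had differences unlike those of the gene around them. Mllt10, which contains Mir7655 and encodes a chromatin factor, fell by 0.42 (adjusted p = 0.0283), while the fragments of Mir7655 were more numerous, a relative difference of 1.96 on the log2 scale. Dnaja1, a chaperone gene with an exon that covers part of Mir207, had a log2 fold change of -0.03, and Mir207 was higher relative to it by 1.64. Relative to Klf9, Mir1192 was lower by 0.85, and relative to Strbp, Mir5128 was lower by 0.94. In these 4 pairs the genotypes did not overlap (exact permutation test, two-sided, p = 0.1 each). Overlap of reads between a hairpin and unspliced RNA of its containing gene was not tested.

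**Figure D4:**
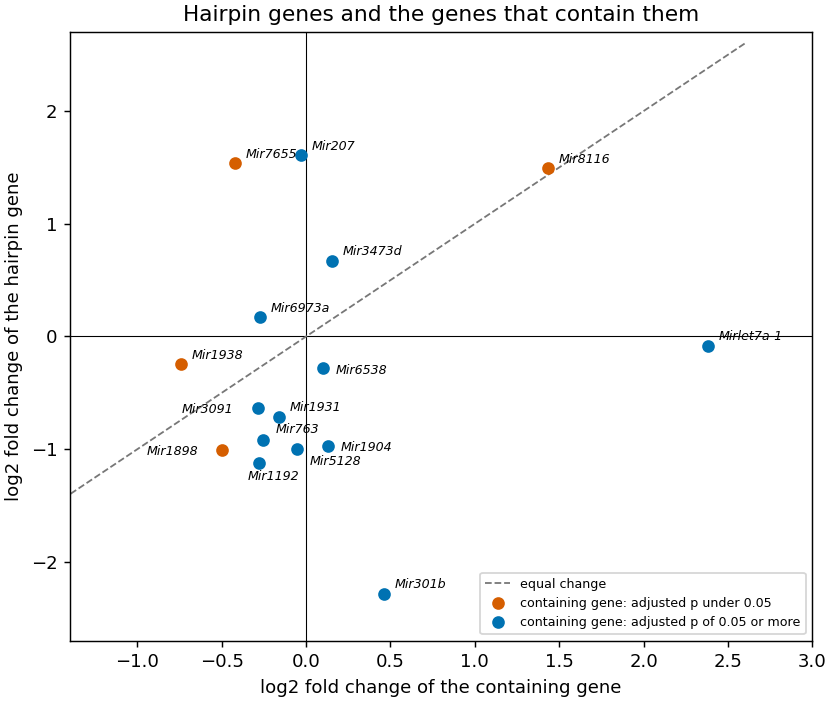
Each point is a tested hairpin gene, with the log2 fold change of the gene that contains it on the x axis and its own on the y axis, orange where the containing gene has an adjusted p under 0.05. Mir8116 lies near the dashed line of equal change, and Mir301b (0.46 on the x axis, -2.28 on the y axis) lies farthest below it.

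Per listed length, some hairpins had more fragments than the gene around them. Fragments can reach beyond a hairpin of 56 to 147 bases. FPKM over so short a length is therefore not on the same scale as FPKM over a longer gene. Over the 67 pairs the median ratio of hairpin FPKM to containing gene FPKM was 0.227, and 12 hairpins had a higher FPKM than their containing gene. Mir1931 had a mean scaled FPKM of 100.4, compared with 13.9 for Cdk17, a ratio of 7.20. Mir1192 had 20.4 against 11.8 for Klf9, and Mir6538 had 9.03 against 2.73 for Rnf144a. In contrast, Mir301b stood at 0.152 and Mir207 at 0.112 of their containing genes.

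The genes that make and use miRNAs were, with few exceptions, measured with more fragments than the hairpins, and few were called. Of 26 genes of processing, export, dicing, silencing and hairpin turnover, 25 were tested, of which limma called 2 lower and none higher (all genes: 4.43% lower, 4.04% higher). Without adjustment, p was under 0.05 for 8 lower and 2 higher genes (all tested genes: 13.0% in each direction). By voom, 2 were also called lower and 0 higher. The median log2 fold change was -0.18, with 17 of 25 below 0, and the median over all tested genes was 0.008. The share of all tested genes below 0 was not computed. Ddx17, an RNA helicase that works with the Microprocessor, had 5912, 6556 and 6463 fragments against 3890, 3957 and 4475. It fell by 0.82 on the log2 scale (standard error 0.0966, adjusted p = 0.00381 from limma) and was called under every alternative tried. Zcchc11, also named Tut4, adds uridines to hairpins of the let-7 family. It had 2948, 5484 and 3884 fragments against 2794, 2241 and 2973 and fell by 0.79 (standard error 0.170, adjusted p = 0.0340 from limma). Without Znf143 f/f library 1 or 3 or Znf143 −/− library 2 or 3 the call ended (adjusted p of 0.0506 to 0.136 from limma). The call also ended on FPKM as deposited, without a variance trend and with the replicate block, so that 9 of 16 settings called Zcchc11.

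Core components showed no call. Drosha, the nuclease of the Microprocessor, had 787, 1163 and 984 fragments against 1101, 1235 and 1620 (log2 fold change 0.23, adjusted p = 0.229), and its partner Dgcr8 had a log2 fold change of -0.05 (adjusted p = 0.877, 0.10 on the log2 scale without Znf143 −/− library 1). Xpo5, the gene of Exportin-5, had 934, 890 and 1009 fragments against 920, 1964 and 2310, so that Znf143 −/− library 1 lay with the controls (log2 fold change 0.57, adjusted p = 0.218, 0.0162 without that library). Dicer1 had 1088, 1422 and 1318 fragments against 1094, 1100 and 1268, with all Znf143 −/− libraries lower after scaling (log2 fold change -0.34, adjusted p = 0.0780). All 7 silencing genes had log2 fold changes below 0. Of these, 4 had an unadjusted p under 0.05, as had 13.0% of all tested genes in this direction. None of the 7 passed the threshold by limma or by voom. The log2 fold changes were -0.37 for Ago1, -0.22 for Ago2, -0.62 for Ago3 and -0.64 for Ago4 (adjusted p of 0.127, 0.295, 0.152 and 0.0928 from limma). Lin28b, which blocks let-7 processing in fetal stem cells, had 17, 7 and 14 fragments against 56, 39 and 41 (log2 fold change 1.63, standard error 0.501, adjusted p = 0.0886).

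**Figure D5:**
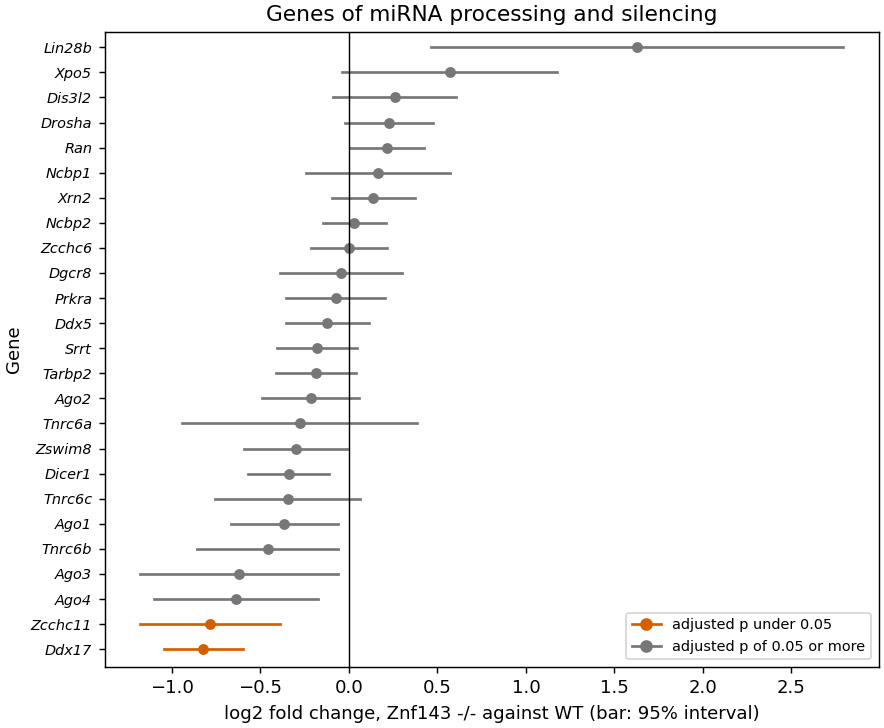
Points give the log2 fold change of Znf143 −/− against Znf143 f/f (x axis) and bars its 95% confidence interval for the 25 tested genes of miRNA processing and silencing (y axis), orange where the adjusted p is under 0.05. Ddx17 (-0.82) and Zcchc11 (-0.79) are orange at the lower end, and Lin28b (1.63) is highest with a wide interval.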

How the data were processed

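Expression was analysed from the deposited table of 6 RNA-seq libraries (SMART-Seq v4, 3 Znf143 f/f and 3 Znf143 −/−), and the ChIP-seq and HiC samples were not analysed here. The authors used TrimGalore for trimming, STAR for alignment to GRCm38 and FeatureCounts for counting, and they deposited FPKM values with gene lengths. The fold changes, p-values and mean counts of the authors' own comparison were not used. The libraries do not keep strand, so that fragments of hairpins and of genes on the opposite strand cannot be told apart.

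Fragments were recovered as FPKM times length divided by the value of 1 fragment. Of 138696 values, 99.986% were within 0.05 of a whole number. Znf143 −/− library 3 carries the FPKM divisor of library 2 (48378188, against 57895793 fragments on its genes), and fragments were therefore scaled by median-of-ratios size factors (0.820 to 1.24, set on 19046 genes), and scaled FPKM were computed from them. Genes with a mean of at least 10 scaled fragments were tested on log2(scaled fragments + 1) with limma 3.58.1 in R 4.3.3 (lmFit, eBayes with a variance trend), adjusted by the Benjamini-Hochberg method over all 17935 genes, with a threshold of 0.05. A fold change on this scale understates the change of genes with few fragments. On simulated fragments of the comparison of Znf143 −/− with Znf143 f/f over 17935 genes, 69 of 100 genes changed 2-fold and 100 of 100 changed 4-fold were recovered, and 4 of 173 calls were false. The simulation used the mean fragments of all tested genes and a single setting of the spread between libraries. Its recovery is therefore not that of hairpin genes with few fragments. Each mouse gave 1 library, n = 3 per group. The groups are littermates, and which libraries form a pair is not stated.

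Positions came from GENCODE vM21 on GRCm38, found for 112 of 113 members, and copies of hairpins from BLAST 2.17.0 (identity of at least 95% over 90% of the hairpin). Hairpins were compared with their containing gene by a two-sided exact permutation test. The genes named are those past the threshold, the 5 highest and 5 lowest log2 fold changes, the 10 most abundant members, all hosts, tested members of the blood list, those at 0 in a whole genotype and with at least 3 fragments in each library of the other, and core processing genes. Mir130b, Mir24-2, Mir6538 and Lin28b were added after their values were seen. Some marker genes are not reported here. The members and lists were chosen with earlier results of these data known. Python 3.11.15, numpy 2.4.6, pandas 2.3.3 and matplotlib 3.10.9 were used.

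Alternatives were pseudocounts of 0.5 and 5, filters of 3 fragments and none, FPKM as deposited (log2(FPKM + 0.1), mean FPKM of at least 0.1), library totals, voom, no variance trend, the replicate block and each library left out.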

Additional observations from a re-analysis of the deposited data

How the results depend on the processing

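The count of members called, 2 of 36, was 1 with a pseudocount of 0.5 fragments and 1 with library totals. It was 5 without a variance trend, 1 with the replicate block and 0 to 7 with each library left out. Other filters tested more members. With a filter of 3 fragments 3 of 78 were called, without a filter 3 of 113 and on FPKM as deposited 10 of 112. Of the 36 members, limma called 0 (4 to 7 at an unadjusted p under 0.05) without Znf143 f/f library 1 or 3 or Znf143 −/− library 2 or 3. Without Znf143 f/f library 2 it called 7. All genes called, 1520 of 17935, were 452 with the replicate block and 330 to 2841 with each library left out. The count was 2841 without Znf143 f/f library 2 and 2711 without Znf143 −/− library 1. On FPKM as deposited, 833 of 19296 genes were called. Of the 1520 calls 47.7% were higher, against 63.5% on FPKM as deposited, where the median log2 fold change of all genes was 0.114. Processing and silencing genes called, 2 of 25, were 1 on FPKM as deposited, 1 without a variance trend, 1 with the replicate block and 1 to 9 with each library left out, 9 without Znf143 −/− library 1. Same-numbered libraries did not deviate together (correlations of -0.05, -0.03 and 0.03). Correlations this near to 0 cannot decide whether the numbers pair the littermates.

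Under the alternatives, Mir22hg kept a log2 fold change of 1.66 to 2.10 and Mir301b of -2.52 to -1.59. Of the 16 settings, 12 called Mir22hg, 9 called Mir301b and 16 called Ddx17. Genes whose difference was near 0 changed sign on FPKM as deposited (Mir6236 0.0212, Mirlet7a-1 0.0112, Dgcr8 0.0665) or with single libraries left out, where the log2 fold change ranged from -0.28 to 0.0286 for Mir6236 (0.0286 without Znf143 −/− library 3), from -0.68 to 0.32 for Mirlet7a-1, from -0.27 to 0.72 for Mir133a-1hg (-0.27 without Znf143 f/f library 2) and from -0.13 to 0.0996 for Dgcr8 (0.0996 without Znf143 −/− library 1). The cause was not tested.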

Other observations

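Of the 77 members below the filter, 14 had genotypes that did not overlap, 7 in each direction. Among all tested genes 32.0% did not overlap, and the share over all genes below the filter was not computed. The count is therefore not a result about the members. The members named here were picked after their values were seen. Mir150, the hairpin of a miRNA known from mature lymphocytes, had 2, 8 and 1 fragments in Znf143 f/f and 11, 11 and 12 in Znf143 −/− libraries (adjusted p = 0.193 from limma without a filter). Mir132, known to act in hematopoietic stem cells, had 3, 1 and 4 fragments against 7, 6 and 8 (adjusted p = 0.338), and its neighbour Mir212, whose 3p product shares the seed AACAGUC with miR-132-3p, had 0, 1 and 4 against 6, 3 and 1. The gene around both, 1700016P03Rik, had a log2 fold change of 1.02 (adjusted p = 0.178). Mir8095, in an intron of Dgkg, had 15, 11 and 10 fragments against 3, 8 and 2 (adjusted p = 0.162). These values rest on at most 15 fragments per library, and none of the differences passed the test at this depth.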
